A study of Mus musculus musculus x Mus musculus castaneus with 12 samples.

Results

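*Gbp4*, *Egln3*, *R3hdml*, *Srgap1*, *Aldh6a1*, *Fam114a1* and *Abca3* are 7 autosomal genes, of 24346 measured, that were chosen by their total expression, which differed from wild type (wt) in opposite directions when *Kdm6a* was knocked out (KO) in ES cells of 2 reciprocal mouse crosses. They were found by gene symbol, and all 7 passed the filter on low values that kept 14670 genes. The knockout values below chose the genes, so they are given as a description without a test, and so are the gaps between the crosses, which use the same libraries. The 2 alleles of each gene were compared by a test, since the choice of the genes used only the total over both alleles.

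The cells were male F1 hybrid ES cells from a C57BL/6J (BL6) mother and a *Mus castaneus* (cast) father, called BC, or from the reciprocal cross with a cast mother, called CB. RNA-seq libraries were made from 2 wt replicates of each male line and of a female BC line, called cultures here, and from 3 male KO clones of each cross. The clones of BC were ΔE1, ΔE3 and ΔP4. In CB they were ΔE2.5 and ΔE2.7, with an exonic deletion, and ΔP2.1, with a promoter deletion. Each KO clone is a line of its own. According to the study, ΔE1 and ΔE3 descend from a single editing event and share an off-target deletion on the X chromosome, and the CB wt line carries an actin-GFP transgene. All cells were cultured with serum and leukemia inhibitory factor on mouse embryonic fibroblasts. Cross, cell line and transgene cannot be told apart in these data. In bulk RNA, fewer cells that express a gene and less RNA per cell cannot be told apart either.

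KDM6A removes repressive methylation from histone H3 and acts in complexes that mark active enhancers. Its gene lies on the X chromosome and escapes X inactivation, so female cells have 2 active copies and male cells a single copy. In an F1 hybrid, the SNPs that separate the parental strains show which copy of a gene a read comes from. In the reciprocal cross the BL6 copy changes from maternal to paternal.

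The study lists a pair of guide RNAs for each kind of deletion, exonic (ΔE) and promoter (ΔP), and they are shown because they define the edit that the clones carry. Each guide is written 5′ to 3′ with its protospacer adjacent motif in capitals.
ΔE Left: gaaacctcacgaacccgaaaAGG
ΔE Right: tagcattatctgcataccagAGG
ΔP Left: ggacactgcatgtttgatggAGG
ΔP Right: agctacatactccaaaggagAGG
With its motif, ΔE Left matched the antisense strand of 5 of 10 annotated *Kdm6a* transcripts. The level of *Kdm6a* in TPM, which scales fragments by transcript length and by library, was 49.9 and 51.3 in BC wt and 51.1 and 51.8 in CB wt. It was 11.6 in ΔE1, 13.5 in ΔE3 and 0.0441 in ΔP4, against 2.07 in ΔE2.5, 7.29 in ΔE2.7 and 0.0365 in ΔP2.1. Exons outside the deletion still give fragments in the exonic clones, and the promoter clones had nearly none.

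BC libraries held 68457338 to 89070402 fragments and CB libraries 49975599 to 53407103, and 17.8% to 18.2% of these carried an informative SNP. The ES cell genes *Pou5f1*, *Nanog* and *Sox2* were expressed in every library, with *Pou5f1* at 2072 TPM or more. The clone ΔP2.1 stood apart in its allele shares. Of 9933 autosomal genes covered by 20 or more SNP fragments in each library, 561 differed from the CB wt mean by more than 25 percentage points in ΔP2.1, against 37 in ΔE2.5 and 31 in ΔE2.7. The female BC libraries differed as much from the male BC wt mean at 1019 and 1020 of these genes. The X-linked genes of ΔP2.1 had a median BL6 share of 0%, as in the other CB libraries. Counts of clones and alleles in CB KO are therefore also given without ΔP2.1.

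All 7 genes had KO clones of BC on one side of both BC wt cultures and KO clones of CB on the other side of both CB wt cultures. Among all 14670 genes, 8.56% did so, with 32.2% separated in BC in either direction, 45.2% in CB, and 54% with opposite signs of the mean change. *Gbp4*, *Egln3* and *R3hdml* were lower in BC KO and higher in CB KO. *Srgap1*, *Aldh6a1*, *Fam114a1* and *Abca3* were higher in BC KO and lower in CB KO. Since every clone of the 7 genes lay on its side of wt, any choice of clones had to keep these signs and sides. The 2 promoter clones alone thus gave opposite signs as well. Without ΔP2.1 all 7 were likewise on opposite sides, against 11.7% of all genes, with 65.6% separated in CB. Levels below are CPM, fragments scaled by library size after TMM normalization and not by gene length, and log2 differences are given with the standard error (SE) of the edgeR fit.

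**Figure D1:**
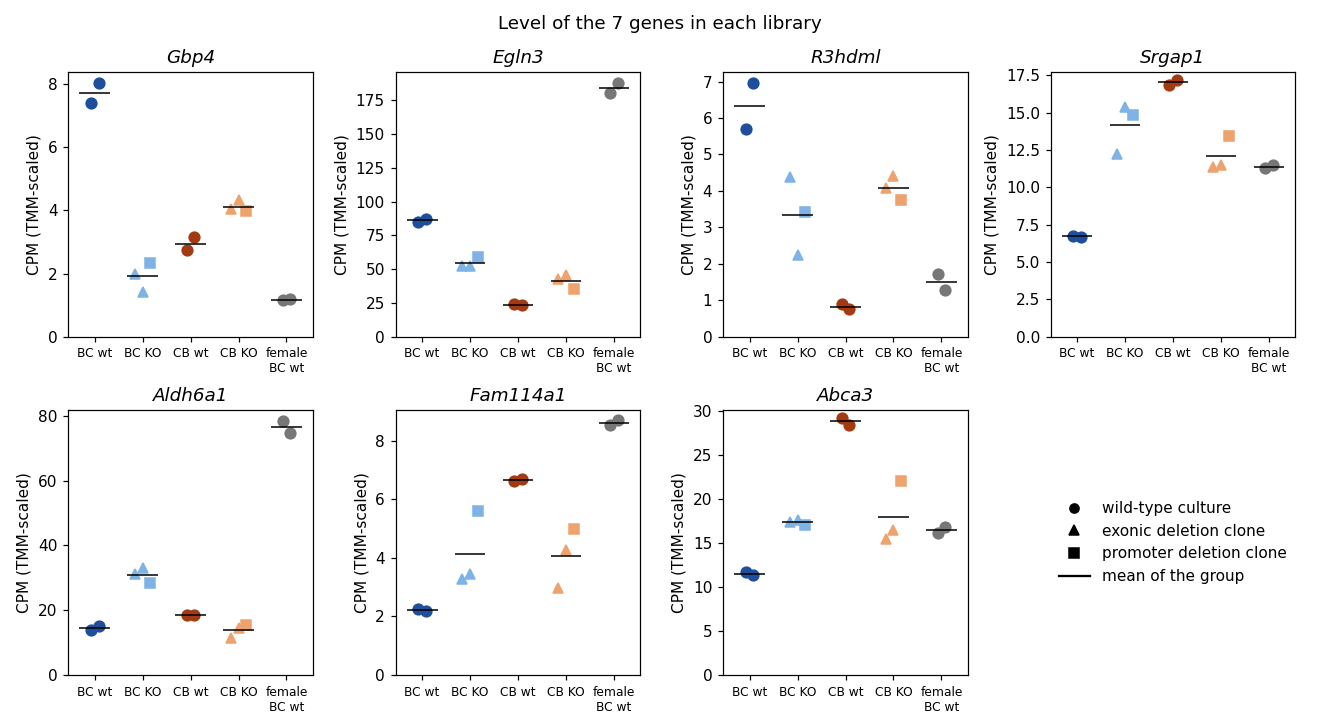
The y axis gives the level in CPM and the x axis the group. Each point is a library, with circles for wt cultures, triangles for exonic clones, squares for promoter clones and a line at the mean. *R3hdml* goes from 5.70 and 6.96 in BC wt against 0.905 and 0.756 in CB wt to overlapping clones in KO, while *Aldh6a1* starts close together and moves apart.

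*Gbp4* encodes a guanylate-binding protein, an interferon-inducible GTPase of cell-autonomous immunity, and lies on the minus strand of chromosome 5 of GRCm38 from 105115767 to 105139586. Its level was 7.38 and 8.03 CPM in the BC wt cultures. It was 2.00 CPM in ΔE1, 1.40 CPM in ΔE3 and 2.32 CPM in ΔP4. In CB it was 2.73 and 3.16 CPM in the wt cultures, against 4.05 CPM in ΔE2.5, 4.32 CPM in ΔE2.7 and 3.96 CPM in ΔP2.1. *Gbp4* was thus highest in BC wt, and every BC KO clone was below every CB library. The log2 difference between KO and wt was -2.01 (SE 0.21) in BC and 0.48 (SE 0.22) in CB. It had the largest change in BC of the 7 genes, 4.04-fold lower. The gap between crosses went from 1.39 (SE 0.24) on the log2 scale in wt, with BC above CB, to -1.11 (SE 0.19) in KO. The crosses were thus still 2.15-fold apart in KO, against 2.61-fold in wt, with the order turned. *Gbp8* and *Gbp9* are annotated across nearly the whole of *Gbp4* on the same strand, so fragments of these relatives may be shared, and *Gbp9* reached 4.95 CPM.

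*Egln3* encodes a prolyl hydroxylase that marks the alpha subunits of hypoxia-inducible factor (HIF) for degradation when oxygen is present, and is itself a HIF target. It lies on the minus strand of chromosome 12 from 54178981 to 54203860. Its level was 85.1 and 87.2 CPM in BC wt. The BC clones ΔE1, ΔE3 and ΔP4 had 52.4, 52.0 and 58.8 CPM. CB wt had 24.3 and 23.4 CPM, and ΔE2.5, ΔE2.7 and ΔP2.1 had 43.0, 45.7 and 35.1 CPM. All BC libraries remained above all CB libraries, KO clones included. The log2 difference between KO and wt was -0.66 (SE 0.11) in BC and 0.79 (SE 0.12) in CB. The crosses differed 3.61-fold in wt and 1.32-fold in KO, and with the promoter clones alone the gap in KO was 0.72 on the log2 scale against 0.40 with all clones.

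*R3hdml* encodes a predicted secreted protein of the CAP superfamily and lies on the plus strand of chromosome 2 from 163492318 to 163502612. Its level was 5.70 and 6.96 CPM in BC wt and 0.905 and 0.756 CPM in CB wt. This 7.60-fold gap was the largest of the 7 genes. BC clones ΔE1, ΔE3 and ΔP4 had 4.40, 2.25 and 3.42 CPM. In CB, ΔE2.5, ΔE2.7 and ΔP2.1 had 4.07, 4.42 and 3.76 CPM, so all CB clones were within or above the range of BC KO. The difference between KO and wt was -0.91 (SE 0.26) in BC and 2.29 (SE 0.31) in CB on the log2 scale, a 4.91-fold higher level in CB KO. The gap in KO was -0.28 (SE 0.24), close to its SE, and ranged from -0.53 to -0.07 when libraries were left out.

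*Srgap1* encodes a protein that acts downstream of ROBO receptors for SLIT ligands. It lies on the minus strand of chromosome 10 from 121780991 to 122047315. Its level was 6.78 and 6.70 CPM in BC wt, and 12.2, 15.4 and 14.9 CPM in ΔE1, ΔE3 and ΔP4. CB wt had 16.8 and 17.2 CPM, and ΔE2.5, ΔE2.7 and ΔP2.1 had 11.4, 11.5 and 13.4 CPM. The KO clones of the 2 crosses overlapped, whereas wt cultures did not. The log2 difference between KO and wt was 1.07 (SE 0.14) in BC and -0.49 (SE 0.14) in CB, and the gap went from -1.34 (SE 0.15) to 0.22 (SE 0.12).

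*Aldh6a1* encodes methylmalonate-semialdehyde dehydrogenase, a mitochondrial enzyme of valine and pyrimidine breakdown, and lies on the minus strand of chromosome 12 from 84430717 to 84451004. Its level was 13.9 and 15.0 CPM in BC wt and 18.4 and 18.6 CPM in CB wt. BC clones ΔE1, ΔE3 and ΔP4 had 31.3, 33.1 and 28.3 CPM. In CB, ΔE2.5, ΔE2.7 and ΔP2.1 had 11.4, 14.6 and 15.4 CPM. This was the gene of the 7 whose gap was larger in KO: its crosses were 1.28-fold apart in wt and 2.24-fold apart in KO, with the order turned. The log2 difference between KO and wt was 1.09 (SE 0.14) in BC and -0.43 (SE 0.13) in CB.

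*Fam114a1* lies on the plus strand of chromosome 5 from 64970071 to 65041886. Its level was 2.26 and 2.17 CPM in BC wt, and 3.29, 3.45 and 5.61 CPM in ΔE1, ΔE3 and ΔP4. CB wt had 6.62 and 6.67 CPM, and ΔE2.5, ΔE2.7 and ΔP2.1 had 2.96, 4.28 and 4.97 CPM. The KO clones of the crosses overlapped, with gap 0.02 (SE 0.24) on the log2 scale against -1.59 (SE 0.30) in wt. The log2 difference between KO and wt was 0.89 (SE 0.27) in BC and -0.71 (SE 0.26) in CB. The study names *Fam114a1*, as a gene that KDM6A represses, among those upregulated in KO clones of BC and CB. It refers there to its less stringent list of fold changes in TPM shared by the crosses. In the levels given here *Fam114a1* was higher in every BC clone but lower in every CB clone. Its mean TPM was 1.96 in BC wt and 3.77 in BC KO, and 6.22 in CB wt and 3.63 in CB KO. Among the BC clones the promoter clone ΔP4 differed most from wt.

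*Abca3* encodes a transporter that loads phospholipids into the lamellar bodies of surfactant-producing lung cells and lies on the plus strand of chromosome 17 from 24351950 to 24410201. Its level was 11.7 and 11.3 CPM in BC wt and 17.3, 17.6 and 17.1 CPM in ΔE1, ΔE3 and ΔP4. CB wt had 29.2 and 28.4 CPM, against 15.4 CPM in ΔE2.5, 16.4 CPM in ΔE2.7 and 22.0 CPM in ΔP2.1. The 3 BC clones lay close together, and the CB clones spread on both sides of them. The log2 difference between KO and wt was 0.60 (SE 0.15) in BC and -0.68 (SE 0.14) in CB. The gap went from -1.33 (SE 0.16) to -0.05 (SE 0.13). With the promoter clones alone the CB difference was -0.38 and the gap in KO -0.38. *D330041H03Rik* overlaps *Abca3* on the other strand, and *Hnf4aos* overlaps *R3hdml* likewise, and without strand their fragments cannot be told apart, but they reached only 0.890 and 0.0761 CPM.

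In wt cells, 3 of 7 genes were higher in BC, against 51.9% of all genes, and the BC and CB cultures did not overlap for any of the 7, against 85.7%. In KO, the clones of the crosses did not overlap for 3 genes, *Gbp4*, *Egln3* and *Aldh6a1*, against 39.6% of all genes. Without ΔP2.1 they did not overlap for 5, with *Srgap1* and *Abca3* added, against 47.5% of all genes. The gap was smaller in KO for 6 of 7, against 60.5% of all genes and 73.5% of the 1256 genes whose clones lay on opposite sides of wt. For *Gbp4* it was only a little smaller, 2.15-fold in KO against 2.61-fold in wt, with the order turned. The median size of the gap over the 7 genes was 1.39 on the log2 scale in wt and 0.28 in KO, where all genes had 0.41 and 0.32. The wt level enters both the gap and the change with KO, so these counts are not independent of the rule that picked the genes. The median change of all genes with KO was 0.01 in BC and 0.00 in CB.

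**Figure D2:**
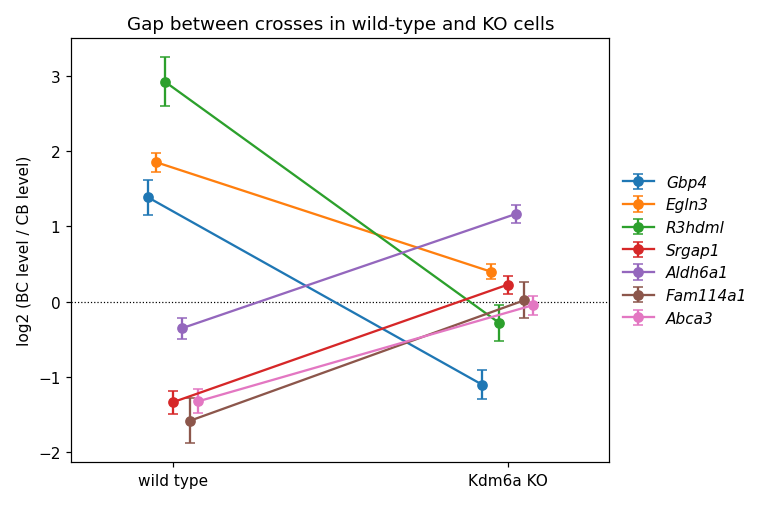
The y axis gives the log2 ratio of the BC level to the CB level, in wt cells on the left and KO cells on the right, with the SE of the fit as error bars. Of the 7 lines, 6 end nearer to 0 than they start, though *Gbp4* goes from 1.39 to -1.11, and *Aldh6a1* goes from -0.36 to 1.17.

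The change in a clone can be expressed as a share of the way from the wt level of its own cross to that of the other, which is a description, since own wt enters both. On the log2 scale, the *R3hdml* level of the CB clones covered 74.6% to 82.5% of the way to BC wt, and that of the BC clones 17.7% to 50.8% of the way to CB wt. For *Gbp4* the BC clones covered 125% to 177% of the way and so passed the CB wt level, while the CB clones covered 31.1% to 39.9%. For *Srgap1* the BC clones covered 64.3% to 89.0% and the CB clones 25.5% to 43.4%. *Egln3* covered 29.8% to 39.3% in BC and 30.1% to 50.6% in CB. *Aldh6a1* passed the other wt level in all BC clones, at 271% to 333% of a short way.

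The promoter clone of CB, ΔP2.1, had the smallest change of the 3 CB clones for 7 of 7 genes, with log2 changes of 0.27 to 2.18 in size. The promoter clone of BC, ΔP4, had the smallest change for 4 genes and the largest for 1, *Fam114a1*. How often a promoter clone had the smallest change was not counted over all genes. The counts therefore cannot be read as a trait of the 7 genes. *Kdm6a* was lower in the promoter clones than in any exonic clone of the same cross. A single promoter clone per cross was measured, so kind of deletion and clone cannot be told apart.

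**Figure D3:**
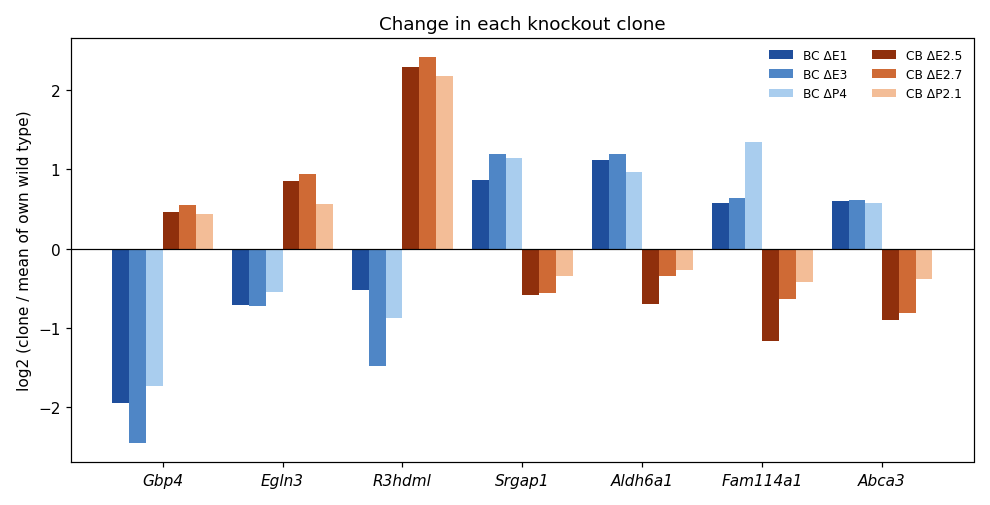
Bars give, for each gene on the x axis, the log2 ratio of a clone to the mean of the 2 wt cultures of its cross, with BC clones in blue and CB clones in orange. The bars of BC and CB point in opposite directions for all 7 genes, and the palest orange bar, ΔP2.1, is the shortest of the CB bars for each.

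The female BC line, with 2 active *Kdm6a* copies at 65.0 and 65.1 TPM, was compared as a wt reference of the same cross. This comparison and that of the BC KO clones share the male BC wt cultures. *Egln3* was at 180 and 188 CPM in the female cultures, the highest of all libraries, while the BC KO clones were below male wt. *Aldh6a1* was at 78.4 and 74.7 CPM, 5.29-fold above male BC wt and above every KO clone. *Fam114a1* was at 8.52 and 8.71 CPM, *Srgap1* at 11.3 and 11.5 CPM and *Abca3* at 16.1 and 16.8 CPM, all above male BC wt. *Gbp4* was at 1.15 and 1.20 CPM and *R3hdml* at 1.73 and 1.29 CPM, both below it. Female and male BC wt did not overlap for any of the 7 genes, against 87% of all genes. Female BC and CB wt did not overlap for any of the 7, against 91.4%. Male and female BC are also different cell lines, with the different allele shares given above, and sex and line cannot be told apart.

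Both alleles of a gene can be followed through the SNP fragments, whose split was applied to the total level after adjusting for the mean BL6-to-cast ratio of the library. The level of an allele is thus a share of the total that picked the genes, so the direction of the alleles largely follows that choice. In BC, both alleles of all 7 genes differed from wt in the direction of the total, where 73.5% of the 12371 autosomal genes with enough SNP fragments had both alleles change in the same direction. For all 7 the clones and the wt cultures did not overlap on either allele, against 13.9% of these genes. In CB, both alleles changed in the direction of the total for 6 of 7 genes, against 70%, and without overlap on both alleles for 4, *R3hdml*, *Srgap1*, *Aldh6a1* and *Fam114a1*, against 17.6%. Without ΔP2.1 the CB counts were 7, against 74.3%, and 6, all but *Gbp4*, against 33.1%. Both counts include *Abca3*, whose BL6 allele in CB wt and the exonic CB clones is uncertain, as described below. For *R3hdml* in CB, the BL6 allele was at 0.305 and 0.410 CPM in wt and at 1.77 to 1.95 CPM in KO. Its cast allele was at 0.600 and 0.347 CPM in wt and at 1.92 to 2.46 CPM in KO. Both alleles of the gene with the largest change in CB were thus higher in KO. The split in CB wt rests on 6 BL6 and 10 cast SNP fragments in the first culture and 7 and 5 in the second, so it is imprecise. *Gbp4* gave only 2 to 48 SNP fragments per library, so its shares are imprecise.

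A change of the BL6-to-cast ratio with KO was tested in edgeR with libraries as blocks, over the same 12371 genes. None of the 7 genes was called in BC or in CB at an FDR of 0.05 and a shift of 1.5-fold, against 0.0162% and 0.00808% of all genes, and 0 had an unadjusted edgeR p under 0.05 in either cross. On counts simulated for the 12371 genes, 80% of shifts of 1.5 on the log2 scale were recovered in BC and 65% in CB. The simulation used a common spread for all genes and no allele differences between clones of a group. Recovery for the 7 genes may be lower, as the SE of the shift was 0.71 in BC and 0.86 in CB for *Gbp4*. For *R3hdml* in CB it was 0.58. Smaller shifts may have been missed. The log2 shifts ranged from -0.39 for *Gbp4* to 0.29 for *Fam114a1* in BC, and these went from -0.75 to -0.03 for *Gbp4* and from 0.08 to 0.49 for *Fam114a1* when libraries were left out. In CB the farthest from 0 was *Abca3* at 1.03 (SE 0.48, edgeR unadjusted p = 0.059), and it was 0.30 without ΔP2.1.

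Single clones of CB nonetheless differed in their alleles. For *Egln3*, the BL6 allele was at 12.7 and 12.3 CPM in CB wt, at 19.6 CPM in ΔE2.5, 19.5 CPM in ΔE2.7 and 23.6 CPM in ΔP2.1. The cast allele was at 11.6 and 11.1 CPM in CB wt, at 23.3 CPM in ΔE2.5 and 26.2 CPM in ΔE2.7, but at 11.5 CPM in ΔP2.1, between the wt cultures. Higher *Egln3* in ΔP2.1 was therefore seen on the BL6 allele. The BL6 share was 67.1% in ΔP2.1 (95% Wilson interval 62.7% to 71.4%, for counting error only), and 45.7% (42.0% to 49.5%) in ΔE2.5 and 42.7% (39.1% to 46.4%) in ΔE2.7. In CB wt it was 52.3% (47.3% to 57.3%) and 52.6% (47.3% to 57.8%), so the interval of ΔP2.1 lay above both wt cultures and that of ΔE2.7 below both. *Srgap1* had a BL6 share of 58.6% (51.3% to 65.6%) in ΔP2.1, and its interval overlapped those of ΔE2.5 (38.8% to 54.2%) and ΔE2.7 (40.7% to 57.4%). These are values of single clones, without a test over clones.

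**Figure D4:**
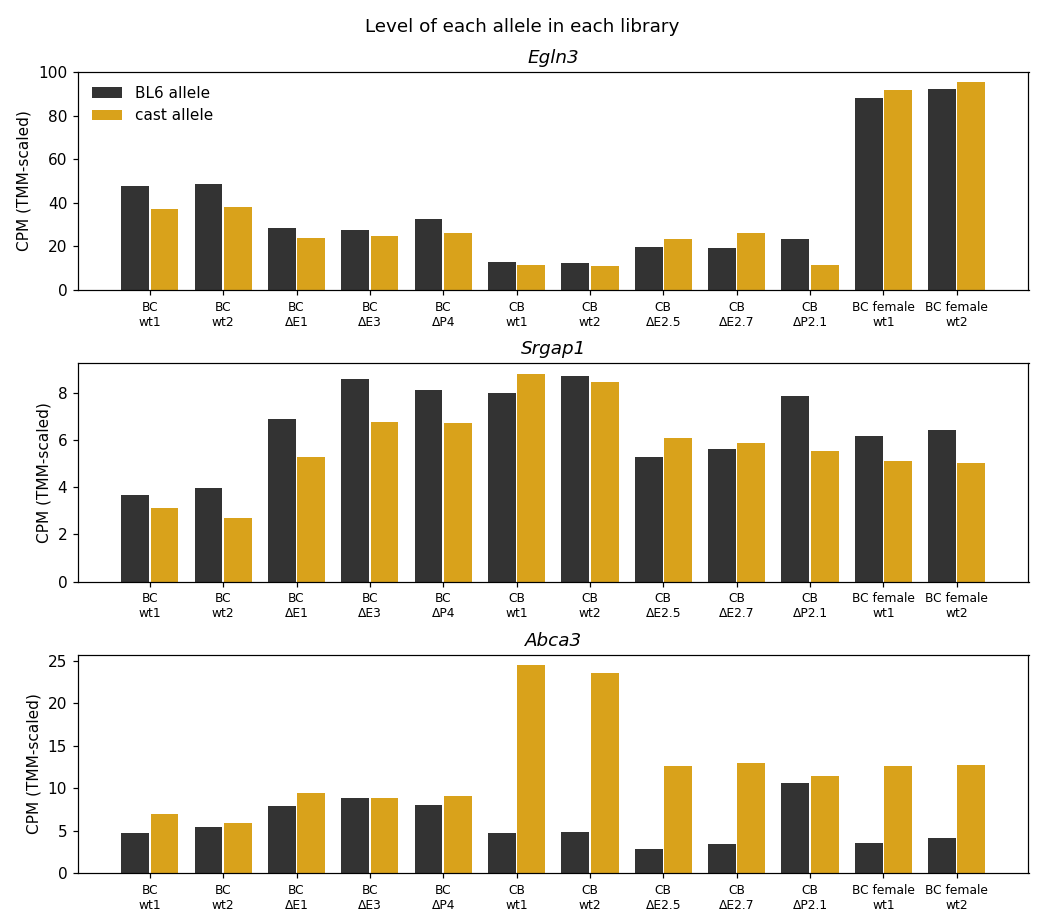
Bars give the level of the BL6 allele (dark) and the cast allele (yellow) in CPM for each library on the x axis. For *Egln3* and *Srgap1* both alleles move together in BC. In ΔP2.1 the cast allele of *Egln3* stays at 11.5 and the BL6 allele of *Abca3* stands at 10.6.

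For the balance of alleles in wt cells, *Abca3* was the gene called among the 7. Over the male wt cultures of both crosses its BL6 allele was lower than its cast allele by a log2 value of -1.15 (SE 0.26, adjusted p = 0.0041 in edgeR), against 27.9% of all genes called. This mean joins -0.19 (SE 0.36) in BC wt and -2.11 (SE 0.36) in CB wt. The call thus rests on CB wt and is not a strain difference seen in both crosses. Its ratio also differed between BC wt and CB wt. Scaled as a maternal-to-paternal log2 ratio, this contrast was 0.96 (SE 0.26, adjusted p = 0.035 in edgeR), against 6.81% of genes called. Parental origin and cell line cannot be told apart in it. The female BC line, also with a BL6 mother, had a share near that of CB, as given below. The contrast is therefore not read as an effect of parental origin. This second call was lost without either BC wt culture, without either CB wt culture and without ΔE3 (adjusted p up to 0.18). *Srgap1* was higher on the BL6 allele by 0.35 (SE 0.11, adjusted p = 0.022) and *Fam114a1* lower by -0.36 (SE 0.13, adjusted p = 0.043), both under 1.5-fold. *Srgap1* did not pass with autosomal totals in place of TMM (0.17, adjusted p = 0.23 in edgeR), with DESeq2 (adjusted p = 0.054), or without the second BC or CB wt culture (adjusted p = 0.14 and 0.11 in edgeR). *Fam114a1* did not pass without any 1 of the male wt cultures, without ΔE2.5 or ΔE2.7, or without the filter on SNP fragments, with adjusted p up to 0.29 in edgeR, nor with DESeq2 (adjusted p = 0.092). *Egln3* was higher on the BL6 allele by 0.43 (adjusted p = 0.068 in edgeR), and it passed the FDR, though not 1.5-fold, without ΔP2.1 (adjusted p = 7.08e-05 in edgeR) and without ΔE2.7 (adjusted p = 0.036 in edgeR). *Gbp4*, *R3hdml* and *Aldh6a1* did not pass the edgeR test for strain.

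The BL6 share of *Abca3* was 40.2% and 48.3% in male BC wt, 16.1% and 17.2% in CB wt, and 22.2% and 24.7% in the female BC line. The female cells carry the BL6 copy from the mother as the male BC cells do, but their share lay near that of CB. The genes around *Abca3* moved with it. Of 50 genes within 1 Mb that had enough SNP fragments, 16 had a BL6 share under 10% in each CB wt culture, and 14 in each female culture, against 1 and 0 in male BC wt. The neighbour *Ccnf* had 0 BL6 and 430 cast SNP fragments in the first CB wt culture, and the neighbour *Rnps1* 3 and 357. The median share of the 50 genes was 45.7% and 46.5% in male BC wt and 17.1% and 15.5% in CB wt, so neighbouring genes had lower BL6 shares as well.

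In the same stretch, ΔE2.5 and ΔE2.7 had median shares of 15.9% and 16.2%, like CB wt, but ΔP2.1 had 49.0%, with none of the 50 genes under 10%. In ΔP2.1, *Ccnf* had 229 BL6 and 228 cast fragments and *Rnps1* 682 and 375. The BL6 allele of *Abca3* was at 10.6 CPM in ΔP2.1, against 4.69 and 4.88 CPM in CB wt, 2.85 CPM in ΔE2.5 and 3.44 CPM in ΔE2.7. Its cast allele was at 11.4 to 13.0 CPM in all 3 CB clones, against 24.5 and 23.5 CPM in CB wt. By these levels *Abca3* was the gene of the 7 whose alleles disagreed in CB, and without ΔP2.1 both levels were lower than in wt. *Ccnf* had 0 BL6 fragments in both CB wt cultures and in ΔE2.5 and ΔE2.7. Whether the BL6 fragments of *Abca3* in these libraries come from a BL6 copy was not tested. Without ΔP2.1 the total difference in CB was -0.85 on the log2 scale, against -0.68 with it. Around the other 6 genes, the median share of nearby genes in ΔP2.1 was 47.4% to 56.2%. A single neighbour could still differ: *Arhgap5*, next to *Egln3* among the fitted genes, had BL6 shares of 7.74% and 6.55% in CB wt, 5.53% in ΔE2.5 and 4.45% in ΔE2.7, but 50.2% in ΔP2.1.

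**Figure D5:**
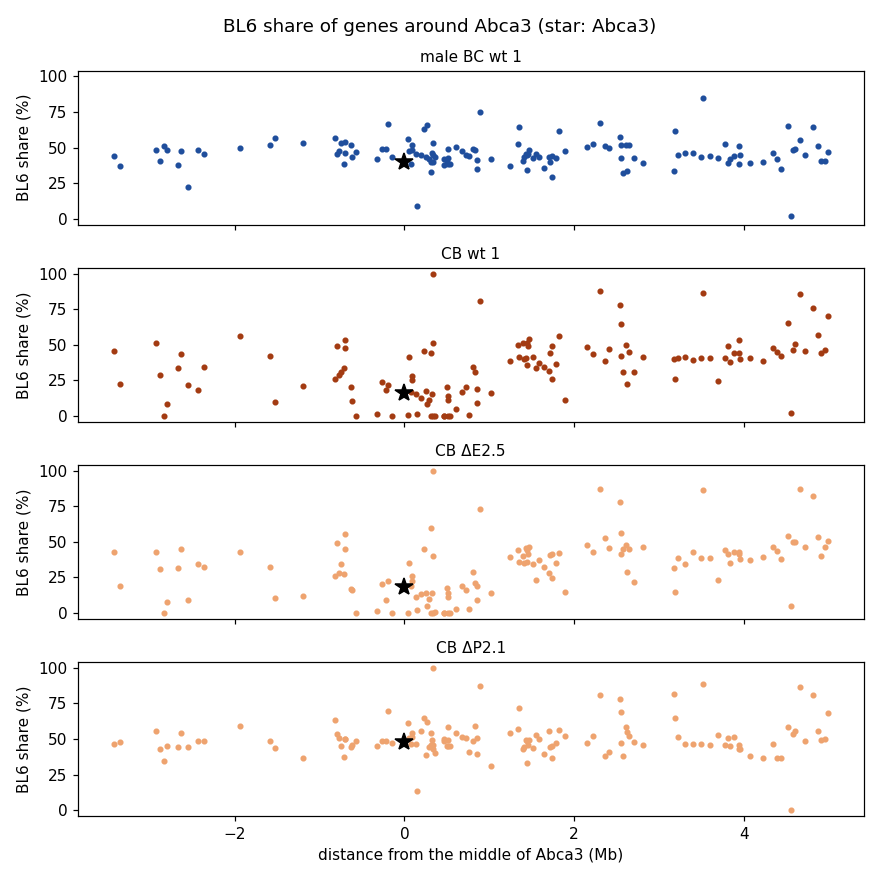
Each point is a gene with enough SNP fragments, placed by its distance in Mb from the middle of *Abca3*, with the BL6 share in percent on the y axis and *Abca3* as a star, in a library of male BC wt, CB wt, ΔE2.5 and ΔP2.1. Within 1 Mb, the median lies at 17.1% in the CB wt library and 15.9% in ΔE2.5, but at 45.7% in male BC wt and 49.0% in ΔP2.1.

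Relatives and pathway partners of the 7 genes are given by the number whose clones all lay on one side of wt, which 32.2% of all genes did in BC and 45.2% in CB. The lists were not tested, and each share is to be read against these. Of 16 fitted genes, of 24 in the files, of the GBP family and interferon response, 2 were higher and 7 lower in BC KO, and 1 was higher and 2 lower in CB KO. *Gbp2*, another interferon-inducible GTPase, differed by -1.05 (SE 0.51) in BC and -0.42 (SE 0.48) in CB on the log2 scale, and was far higher in CB wt (59.4 and 60.2 CPM) than in BC wt (5.46 and 5.02 CPM), the reverse of *Gbp4*. *Gbp3* differed by -1.04 in BC and 0.04 in CB, and *Gbp7* by -0.02 and -0.11. *Gbp9* differed by -0.62 in BC and 0.09 in CB. The transplantation antigen subunit *B2m* was the single gene of this list with clones on opposite sides, higher in BC and lower in CB, which is opposite to *Gbp4*.

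Among 18 HIF hydroxylases and hypoxia targets, 2 were higher and 4 lower in BC KO, and 2 higher and 8 lower in CB KO. The relatives of *Egln3* in HIF hydroxylation did not follow it: *Egln1* differed by -0.51 (SE 0.25) in BC and -0.33 (SE 0.25) in CB, and *Egln2* by -0.08 and 0.12. *Kdm3a*, a hypoxia-induced histone demethylase, was the 1 gene of the list on opposite sides, at -0.33 (SE 0.12) in BC and 0.19 (SE 0.12) in CB.

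Among 13 genes of SLIT-ROBO signalling and its srGAP proteins, 4 were higher and 1 lower in BC KO, and 0 were higher and 6 lower in CB KO. *Robo4*, a ROBO receptor gene, was the 1 gene lower in BC KO and was on the lower side in CB as well. It differed by -1.46 (SE 0.27) in BC and -0.31 (SE 0.28) in CB. *Slit1* and *Slit3*, which encode secreted SLIT ligands, were on opposite sides in the same directions as *Srgap1*. These were 2 of the 13 genes, against 8.56% of all genes on opposite sides. *Slit1* differed by 1.31 (SE 0.24) in BC and -0.59 (SE 0.23) in CB, and *Slit3* by 1.30 (SE 0.24) and -0.57 (SE 0.22). *Slit1* was low, between 0.990 and 3.25 CPM in all libraries. *Srgap2*, a relative of *Srgap1*, differed by 0.24 in BC and 0.33 in CB, and *Srgap3* by -0.12 and -0.21.

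Among 21 genes of branched-chain amino acid and propionate catabolism, 9 were higher and 1 lower in BC KO, and 4 higher and 5 lower in CB KO. Here 4 were on opposite sides in the directions of *Aldh6a1*. *Hibadh*, the enzyme that acts just before *Aldh6a1* in valine breakdown, differed by 0.55 (SE 0.12) in BC and -0.16 (SE 0.12) in CB. *Dbt*, a subunit of the branched-chain ketoacid dehydrogenase, differed by 0.43 and -0.17, *Acadsb* by 0.44 and -0.45, and *Pcca* by 0.39 and -0.17. The size of the CB differences, 0.16 to 0.45, was smaller than those in BC except for *Acadsb*.

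All 4 relatives of *Abca3* that were fitted, of 15 ABCA transporters in the files, were higher in BC KO on one side of wt, and none was on one side in CB. *Abca7* differed by 1.19 (SE 0.30) in BC and -0.44 (SE 0.29) in CB, *Abca5* by 0.81 (SE 0.37) and -0.56 (SE 0.36), *Abca1* by 0.57 (SE 0.18) and -0.19 (SE 0.18), and *Abca2* by 0.29 (SE 0.15) and -0.01 (SE 0.15). Of 5 fitted CAP superfamily genes, of 12 in the files, 0 were on one side in BC, and 2 were higher and 1 lower in CB. *Fam114a2*, the relative of *Fam114a1*, differed by 0.07 (SE 0.08) in BC and -0.20 (SE 0.08) in CB, on opposite sides. Without ΔP2.1, CB KO had 2 genes higher and 2 lower in the GBP list, 3 and 9 in the HIF list, 1 and 9 in the SLIT-ROBO list, 6 and 6 in the amino acid list, 1 and 2 among the ABCA transporters and 2 and 2 in the CAP superfamily, against 65.6% of all genes in either direction. The genes on opposite sides were then 1, 2, 3, 5, 2 and 0 in these lists, with *Hif1a*, *Slit2*, *Bcat1*, *Abca1* and *Abca5* added, against 11.7% of all genes, where 8.56% were with all clones.

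Over the 12 libraries, the genes whose log2 levels were most like each of the 7 were found by Pearson's r, given as a description, since the libraries of a line are not independent. For *Srgap1* the nearest was *Slit1* (r = 0.96), followed by *Zfp316* (r = 0.94). *Gbp4* was nearest to *Nanos3* (r = 0.97) and *Ccdc102a* (r = 0.96), and *Egln3* to *Sema4a* (r = 0.99) and *Kcnk4* (r = 0.98). *R3hdml* was nearest to *Pus7* (r = 0.94) and *Anapc15* (r = 0.93), and *Aldh6a1* to *Crebl2* and *Pold4* (r = 0.99 for both). *Fam114a1* was nearest to *Kif3c* (r = 0.98) and *Man2b2* (r = 0.97), and *Abca3* to *Plxnc1* (r = 0.96) and *Bach2* (r = 0.95). *Nanos3*, a germ cell gene, differed by -1.76 in BC KO and 0.15 in CB KO on the log2 scale.

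The nearest fitted gene on each side that did not overlap was taken for reference, at distances of 0.418 to 1607 kb. Of 14 such neighbours, 9 had opposite signs of change in the crosses, against 54% of all genes, and 5 had the signs of the gene they lie next to. The 1 neighbour of 14 on opposite sides, against 8.56% of all genes, was *Zfp951*, 256 kb from *Gbp4*, at -0.64 in BC and 0.47 in CB on the log2 scale. *Hnf4a*, 4.20 kb from *R3hdml*, differed by -0.51 in BC and 0.43 in CB, with clones that overlapped wt. *Ccnf* and *Rnps1*, next to *Abca3*, differed by -0.01 and -0.07 in BC and by 0.09 and 0.20 in CB.

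Summed trophoblast and primitive endoderm markers were higher in CB wt than in BC wt, and lower in CB KO than in CB wt. In BC, the KO clones ranged around wt for both lists. The feeder fibroblast sums of the male groups overlapped. A list of 7 trophoblast markers summed to 163 to 172 TPM in BC wt, 74.7 to 347 TPM in BC KO, 1727 to 1738 TPM in CB wt and 516 to 1227 TPM in CB KO, mostly from *Krt8* and *Krt18*. A list of 7 primitive endoderm markers summed to 29.7 to 30.9 TPM in BC wt, 25.4 to 31.9 TPM in BC KO, 53.8 to 54.7 TPM in CB wt and 32.9 to 41.5 TPM in CB KO. In CB wt, *Dab2* (29.5 and 28.4 TPM) and *Foxa2* (15.9 and 15.9 TPM) made up most of it. Single members did not all follow the sums. *Gata4* was at 3.61 and 3.78 TPM in CB wt and 7.47, 5.29 and 2.16 TPM in ΔE2.5, ΔE2.7 and ΔP2.1. The trophoblast marker *Cdx2* was at 5.78 and 5.82 TPM in CB wt and 4.82, 19.8 and 4.19 TPM in these clones. A list of 12 feeder fibroblast markers summed to 526 to 654 TPM in BC wt, 448 to 671 TPM in BC KO, 629 to 656 TPM in CB wt and 347 to 661 TPM in CB KO. *Fn1* made up most of that sum, at 312 to 643 TPM, and other members differed between the crosses. *Col1a1* was at 9.24 and 7.45 TPM in BC wt and 2.42 to 10.3 TPM in BC KO, against 56.3 and 52.2 TPM in CB wt and 7.54, 19.9 and 102 TPM in ΔE2.5, ΔE2.7 and ΔP2.1. *Col3a1* was at 1.61 and 1.90 TPM in BC wt and 7.93 and 7.25 TPM in CB wt, and *Dcn* at 0.678 and 0.895 TPM against 4.78 and 4.29 TPM. Of these markers, 6, 7 and 10 were above 1 TPM in a library, and none was at 0 in all libraries. Their part in the differences of the 7 genes was not tested.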

How the data were processed

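RNA-seq was analysed for 12 libraries: male BC wt (n = 2), BC KO (n = 3), female BC wt (n = 2), CB wt (n = 2) and CB KO (n = 3). Replicates of wt are, per the study, biological replicates of a line, and KO replicates are clones. For each gene the authors deposited estimated counts of fragments mapped to either genome and of fragments with BL6 or cast SNPs, without normalization. Single-end reads of unstranded libraries had been mapped to mm10 and a pseudo-cast genome with TopHat and Bowtie2 2.2.5, and the counting tool is not given in the sources used here. Of the values, 7.21% were not whole, and they were rounded for the tests.

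All 5 groups were fitted in edgeR 4.0.16 (quasi-likelihood, TMM, R 4.3.3) over genes above 1 TPM in a library. TPM used GENCODE lengths, with 2285 bp for 1036 genes without annotation. Allele ratios were fitted with libraries as blocks over autosomal genes with a mean of at least 10 SNP fragments, and called at an FDR of 0.05 and 1.5-fold. In data simulated with a common spread for all genes, 90.5% (strain) and 90% (parent) of 200 changes of 1.5 on the log2 scale were recovered. The 7 genes and the gene lists were chosen with earlier results of these data known. Named genes were the 7, their homologues, their nearest neighbours and the 2 most similar genes. *Slit1*, *Slit3*, *Robo4*, *B2m*, *Kdm3a*, *Hibadh*, *Dbt*, *Acadsb* and *Pcca* were named after their values were seen. The allele shares around the genes were also examined after the data had been seen. Python 3.11.15, pandas 2.3.3, numpy 2.4.6, scipy 1.17.1 and DESeq2 1.42.0 were used. Promoter and protein sequences were not used here.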

Additional observations from a re-analysis of the deposited data

Results flagged for a closer look

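The effect of KO went in opposite directions in the 2 crosses for each of the 7 genes, with every clone of BC on one side of its wt and every clone of CB on the other side. The difference between the crosses was not tested, since the genes had been picked for it. On the log2 scale, the KO effect in BC minus that in CB was -2.49 for *Gbp4*, -1.45 for *Egln3*, -3.21 for *R3hdml*, 1.56 for *Srgap1*, 1.52 for *Aldh6a1*, 1.60 for *Fam114a1* and 1.28 for *Abca3*. Groups held 2 or 3 libraries, too few to look for single outlying values.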

How the results depend on the processing

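The counts of 7 genes with opposite KO effects, 6 with a smaller gap in KO, 3 higher in BC wt, and 7 on one side of wt in each cross were the same under upper-quartile or DESeq2 scaling, no filter on low values, fragments mapped to BL6, the mean of ΔE1 and ΔE3, and leaving out each male library. The counts of opposite effects and smaller gaps were also the same with the promoter clones alone, an alternative chosen after seeing the data. Since every clone lay on one side of its wt, leaving out libraries at a fixed scaling could not change opposite effects or sides. With the promoter clones alone the log2 difference in CB was -0.38 for *Abca3*, 0.56 for *Egln3*, -0.41 for *Fam114a1*, -0.27 for *Aldh6a1* and -0.34 for *Srgap1*. Counts of alleles and lists without ΔP2.1 were also chosen after seeing the data. The gap in KO of *Fam114a1* ranged from -0.27 to 0.18 and that of *Abca3* from -0.15 to 0.12 when libraries were left out, so their order in KO is not settled. The wt replicate numbers were not shown to pair the samples, as deviations from group means correlated at 0.14 and 0.16 between BC and the other groups and -0.03 between CB and female BC. With the replicate number as a block, 3 genes were again higher in BC wt. The contrast of the allele ratio between BC wt and CB wt, scaled as maternal against paternal, does not separate parental origin from cell line. The count of genes called for it was 0 with ΔE1 and ΔE3 averaged and ranged from 0 to 1 when libraries were left out, which concerns *Abca3* alone. Over all genes, these calls numbered 842, and 501 to 1045 when libraries were left out. Shifts of the ratio with KO numbered 2 in BC, but 241 without ΔP4, and 1 in CB, but 76 without ΔE2.5 and 0 without either CB wt culture, and none of the 7 was among them. The causes were not tested. CB libraries are shallower than BC ones, and few SNP fragments limit *Gbp4* and *R3hdml* most.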
